A study of Rattus norvegicus with 9 samples.

Results

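The comparison of phloretin plus stress with stress alone set 3 PHL + CMS libraries against 3 Veh + CMS libraries of rat medial prefrontal cortex (mPFC), 6 of the 9 libraries of the study. Genes were chosen by level alone, and the 16159 genes with a mean of at least 0.5 FPKM over the 9 libraries were compared, of 34463 in the table. All groups were male SD rats. The PHL + CMS rats received phloretin, chosen at 20 mg/kg for the work in living animals, for 2 weeks before and then during 3 weeks of chronic mild stress (CMS), the Veh + CMS rats received vehicle (CMC-Na) and the same stress, and the Veh rats received vehicle and no stress. RNA was taken from pieces of mPFC tissue, so that fewer cells of a type and less RNA per cell cannot be told apart in any value below. No label says that the 3 libraries of a group come from different rats, and every p-value therefore rests on the spread of these libraries alone, which may be technical.

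Phloretin is a plant dihydrochalcone of apple that is widely used as an inhibitor of glucose transporters. The mPFC is a frontal area of cortex in which chronic stress is known to shrink dendrites and to remove excitatory synapses. Neurons that fire switch on immediate early genes, first the transcription factors of the Fos, Jun, Egr and Nr4a families and then effectors at the synapse, and microglia are the resident phagocytes that clear debris and synapses.

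The 6 libraries held 14859419 to 16960004 reads on genes, and fold changes are on the scale of log2(FPKM + 0.1), with PHL + CMS over Veh + CMS, a scale that makes the change of genes near 0 look smaller than it is. No gene passed an adjusted p of 0.05 in limma (0% of the genes tested, lowest adjusted p 0.136), while 2542 genes had an unadjusted p under 0.05, and all gene values below are given on that footing. Of the genes tested, 7.51% were higher in PHL + CMS and 8.22% lower at an unadjusted p under 0.05, and 1.27% were higher and 3.47% lower when a change of at least 1.5-fold was also asked. The 3 libraries of each group did not overlap for 10.5% of the genes with PHL + CMS above and for 10.7% with PHL + CMS below. The count past the adjusted threshold depended on a single library: without PHL + CMS replicate 2 it was 285 genes, 26 of them higher and 259 lower, and all 25 myelin genes examined were among the lower ones. Without Veh + CMS replicate 2, or without Veh + CMS replicate 3, it was 1 gene. The count of genes higher at an unadjusted p under 0.05 was 1213, and 764 without PHL + CMS replicate 3. The median log2 fold change of all genes was 0.01 and the median standard error 0.16.

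**Figure D1:**
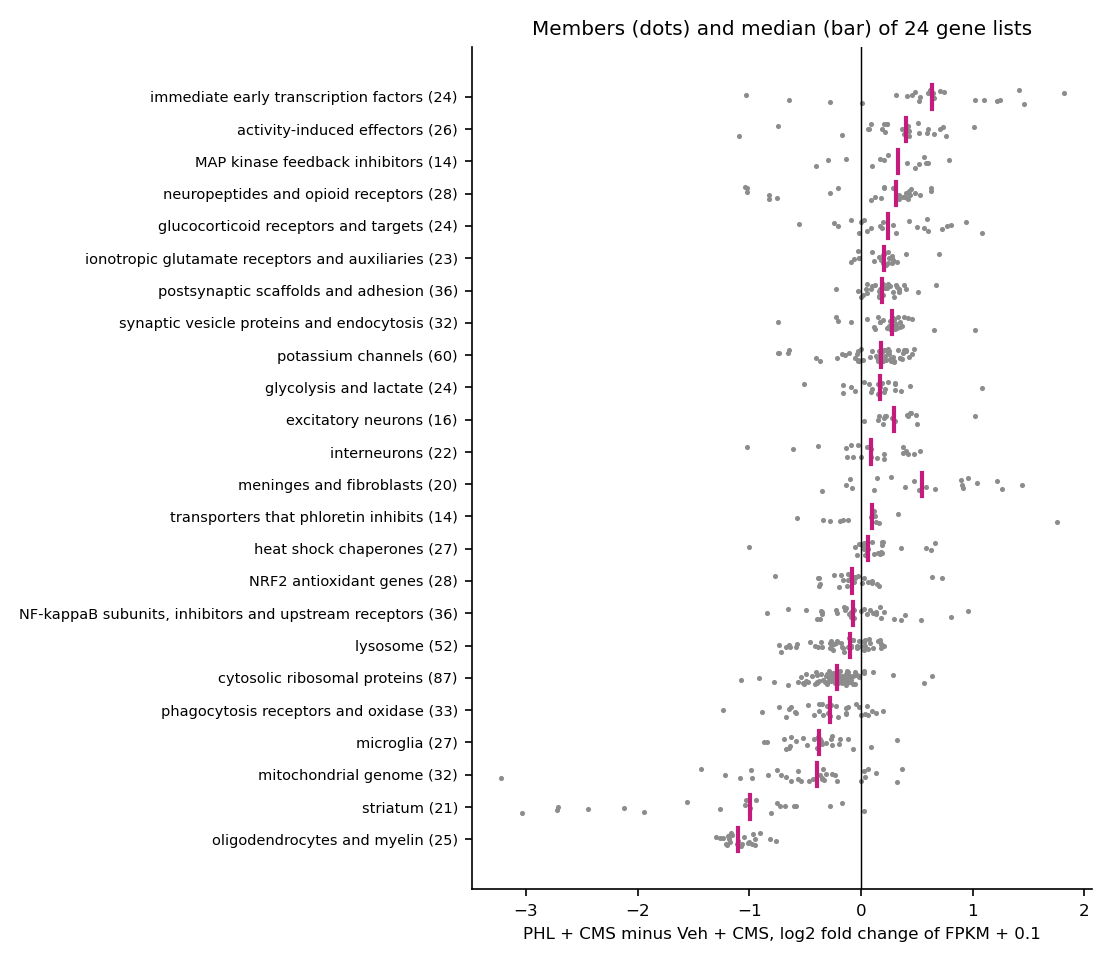
Log2 fold change of FPKM + 0.1 between PHL + CMS and Veh + CMS (horizontal axis) for the tested members of 24 gene lists (grey dots, number in brackets) with the median of each list (pink bar). The median was 0.63 for immediate early transcription factors at the top and -1.10 for oligodendrocyte and myelin genes at the bottom, against 0.01 for all genes.

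The gene with the smallest p of all was Mir212, a microRNA gene next to Mir132 whose shared transcript is known to be induced by neuronal activity and by BDNF. Its annotated hairpin lies at chr10:62014702-62014812 on the plus strand of Rnor_6.0. The libraries were not made for small RNA, so reads on the hairpin stand for the longer transcript and not for the mature microRNA. Mir212 had 29.7, 35.8 and 22.8 FPKM in the PHL + CMS libraries, against 9.20, 9.34 and 11.9 FPKM in the Veh + CMS libraries and 27.5, 31.1 and 26.004 FPKM in the Veh libraries. Every PHL + CMS value lay above every Veh + CMS value, and the Veh values lay at the height of the PHL + CMS values. The log2 fold change was 1.51 ± 0.17 (SE, n = 3 each, limma adjusted p = 0.136) on a mean of 35.5 reads. Its adjusted p was 0.0497 when no filter on low values was used and 0.0121 without PHL + CMS replicate 2. Mir132 had 46.2, 54.4 and 40.9 FPKM in PHL + CMS and 44.6, 23.3 and 29.8 FPKM in Veh + CMS, where the groups overlapped (log2 fold change 0.57 ± 0.29, adjusted p = 0.375).

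The mature 3p arms of the 2 microRNAs are printed because they carry the same seed, bases 2 to 8, given in capitals, and are the only 2 of 724 mature rat microRNAs in RefSeq (GRCr8) with it. They lie at chr10:60521811-60521832 and chr10:60522091-60522112 of GRCr8, both on the plus strand.
rno-miR-212-3p: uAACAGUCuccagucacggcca
rno-miR-132-3p: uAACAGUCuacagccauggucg

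Immediate early transcription factors were higher in PHL + CMS as a group. Of 24 tested, 21 had a fold change above 0, and the median log2 fold change was 0.63, between 0.52 and 0.67 when any library was left out. An unadjusted p under 0.05 was reached by 14 in the higher direction (58.3%, against 7.51% of all genes) and by 1 in the lower direction (4.17%, against 8.22%). Jund, the most abundant Jun family member here, had 159.8, 149 and 158 FPKM in PHL + CMS and 119, 126 and 129.8 FPKM in Veh + CMS. Its log2 fold change was 0.32 ± 0.06, and the libraries of each group lay close together (adjusted p = 0.149). Egr3, a zinc finger factor of the Egr family, had 58.4, 57.3 and 63.5 FPKM in PHL + CMS and 44.0, 34.6 and 31.8 FPKM in Veh + CMS (0.71 ± 0.15, adjusted p = 0.149). Fosb, which pairs with Jun proteins in AP-1, had 18.5, 14.6 and 18.1 FPKM in PHL + CMS against 8.46, 5.66 and 7.93 FPKM in Veh + CMS (1.22 ± 0.29, adjusted p = 0.157). The groups did not overlap for these 3 genes, and the same held for Maff, a small Maf factor with the largest fold change of the list. Maff had 3.14, 2.73 and 5.25 FPKM in PHL + CMS and 0.743, 1.60 and 0.683 FPKM in Veh + CMS (1.82 ± 0.44, adjusted p = 0.157).

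Further members showed the same direction with wider spread in the stressed vehicle group. Egr2 had 14.3, 16.5 and 17.3 FPKM in PHL + CMS and 10.1, 4.90 and 3.84 FPKM in Veh + CMS, where replicate 1 was the highest. Fosl2 had 20.6, 16.5 and 20.9 FPKM in PHL + CMS and 11.5, 6.598 and 6.89 FPKM in Veh + CMS, and Egr4 had 52.0, 46.8 and 59.8 FPKM in PHL + CMS and 40.5, 20.4 and 17.9 FPKM in Veh + CMS. Again the groups did not overlap, and the log2 fold changes were 1.46 ± 0.49 for Egr2, 1.25 ± 0.36 for Fosl2 and 1.10 ± 0.40 for Egr4. Not every member followed. Btg2, an antiproliferative gene, was the only one lower at an unadjusted p under 0.05, with 11.8, 15.5 and 9.88 FPKM in PHL + CMS and 16.2, 18.9 and 22.8 FPKM in Veh + CMS. Fos, Jun and Npas4, the best known activity genes of the list, were looked up after the values were seen. Fos had 34.6, 38.1 and 38.9 FPKM in PHL + CMS and 35.7, 17.2 and 24.1 FPKM in Veh + CMS, with overlap. Jun had a log2 fold change of 0.01 ± 0.17. Npas4, which neurons induce on calcium entry, had 5.42, 4.23 and 1.06 FPKM in PHL + CMS and 14.9, 2.84 and 5.20 FPKM in Veh + CMS (-1.03 ± 0.69, unadjusted p = 0.168). Within the Veh group the same list varied widely, with summed levels of 729 to 1291 FPKM, whereas the sums were 858 to 895 FPKM in PHL + CMS and 555 to 680 FPKM in Veh + CMS.

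Effectors that follow these factors had a lower median, 0.40, with 23 of 26 above 0. Those with an unadjusted p under 0.05 were 8 in the higher direction (30.8%, against 7.51% of all genes) and 1 in the lower (3.85%, against 8.22%). The log2 fold changes of the list ran from -1.10 to 1.01. Nptx2, a secreted pentraxin that gathers AMPA receptors at excitatory synapses onto parvalbumin interneurons, lies at chr12:12013911-12025549 on the minus strand of Rnor_6.0. It had 49.4, 50.3 and 53.8 FPKM in PHL + CMS, against 31.7, 28.9 and 30.1 FPKM in Veh + CMS and 41.5, 46.2 and 55.7 FPKM in Veh. The PHL + CMS libraries lay within the range of the Veh libraries, and the Veh + CMS libraries lay below both (0.76 ± 0.11, adjusted p = 0.149). Its relative Nptx1 had 151, 154 and 142 FPKM in PHL + CMS and 119, 100.2 and 116 FPKM in Veh + CMS, and Homer1, a scaffold of the postsynaptic density with an activity-induced short form, had 56.2, 51.05 and 63.1 FPKM in PHL + CMS and 46.1, 32.7 and 41.2 FPKM in Veh + CMS. Bdnf, the neurotrophin of excitatory synapses, was looked up after the values were seen. It had 8.99, 9.13 and 10.7 FPKM in PHL + CMS and 6.91, 2.73 and 5.45 FPKM in Veh + CMS, where replicate 2 was lowest, and 9.96, 9.85 and 9.79 FPKM in Veh (1.01 ± 0.28, adjusted p = 0.167). Arc, an effector of AMPA receptor uptake looked up in the same way, did not follow, with 65.2, 115 and 57.5 FPKM in PHL + CMS and 88.0, 102 and 40.0 FPKM in Veh + CMS.

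**Figure D2:**
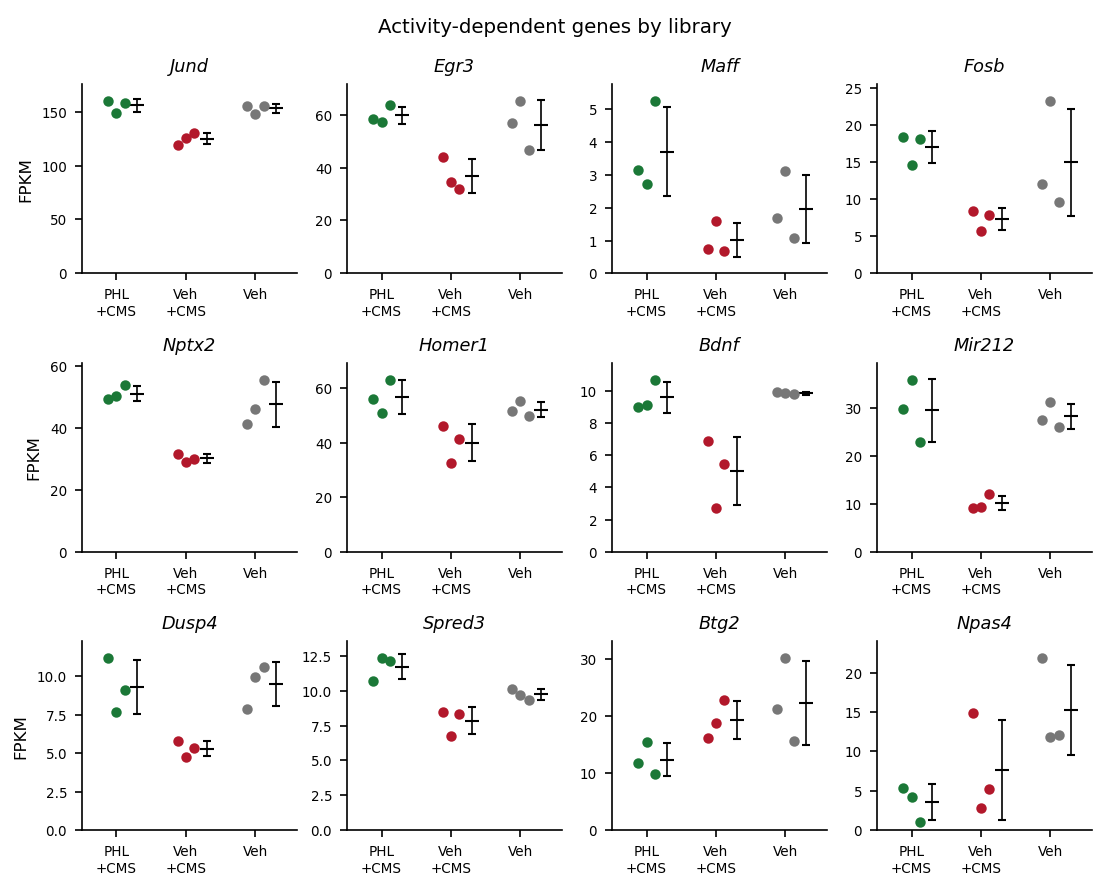
FPKM of 12 activity-dependent genes in each library (points), with the group mean and SD (black, n = 3 per group), for PHL + CMS, Veh + CMS and Veh from left to right. The 3 PHL + CMS libraries lie above the 3 Veh + CMS libraries for the first 10 genes and below them for Btg2, and the groups overlap for Npas4.

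Promoters of the list were searched for the cAMP response element, TGACGTCA, the site of the factor CREB, which reads the same on both strands. RefSeq (GRCr8) gave a promoter, 250 bases before to 50 after the start, for 16 of the transcription factors and 21 of the effectors. The element was found in 5 of the 16 (31.2%, Btg2, Crem, Ier2, Jund and Maff) and in 4 of the 21 (19.0%, Arl4d, Plk2, Scg2 and Vgf). Among the MAP kinase feedback inhibitors it was found in 1 of 13 genes with a promoter (7.69%, Dusp1). Of all 33469 promoters 1.83% held it. A listed gene counted when any of its promoters held the element, whereas the share of all promoters counts each promoter. The shares of the lists and of all promoters are therefore not in the same unit. The element occurred both in genes that were higher in PHL + CMS and in Btg2 and Ier2, which were not, and a match describes the letters and shows no binding. The stretches of Maff, Jund and Scg2 before the start are printed with the element in capitals. These 3 are examples in which the groups did not overlap and PHL + CMS lay above. The groups did not overlap for Btg2 either, with PHL + CMS below, and its stretch is not printed. The printed stretches lie at chr7:112792710-112792769 on the plus strand, chr16:18769959-18770018 on the minus strand and chr9:88256956-88257015 on the minus strand of GRCr8.
Maff: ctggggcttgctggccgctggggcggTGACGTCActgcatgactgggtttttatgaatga
Jund: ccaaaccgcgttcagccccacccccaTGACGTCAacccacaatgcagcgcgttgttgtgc
Scg2: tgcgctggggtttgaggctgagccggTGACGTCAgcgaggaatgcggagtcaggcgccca

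Scg2 encodes a granin of dense-core vesicles and had 72.1, 91.1 and 67.8 FPKM in PHL + CMS and 63.8, 41.7 and 57.0 FPKM in Veh + CMS (0.52 ± 0.21, adjusted p = 0.286).

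Feedback inhibitors of the MAP kinase cascade, which ERK signalling itself induces, were higher in part. Of 14 tested, 11 lay above 0, 7 reached an unadjusted p under 0.05 in the higher direction (against 7.51% of all genes) and 1 in the lower (7.14%, against 8.22%), and the median was 0.33. The groups did not overlap for 6 with PHL + CMS above (42.9%, against 10.5% of all genes) and for 3 with PHL + CMS below (21.4%, against 10.7%). Dusp4, a phosphatase of ERK in the nucleus, had 11.2, 7.67 and 9.08 FPKM in PHL + CMS and 5.77, 4.78 and 5.34 FPKM in Veh + CMS (0.79 ± 0.16, adjusted p = 0.149). Spred3 had 10.7, 12.3 and 12.2 FPKM in PHL + CMS and 8.45, 6.72 and 8.33 FPKM in Veh + CMS, and Spred2 had 28.7, 25.7 and 26.6 FPKM in PHL + CMS and 22.6, 17.5 and 18.1 FPKM in Veh + CMS, both membrane inhibitors of Ras signalling. Neither gene's groups overlapped. Spry2, a further inhibitor of receptor tyrosine kinases, went the other way, with 22.2, 27.6 and 18.7 FPKM in PHL + CMS and 27.6, 33.1 and 28.9 FPKM in Veh + CMS (-0.40 ± 0.15, adjusted p = 0.249).

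Peptides of cortical interneurons and their receptors were higher in PHL + CMS in part. Among 28 tested genes of the neuropeptide list, 20 lay above 0, 11 had an unadjusted p under 0.05 in the higher direction and none in the lower (39.3% against 7.51% of all genes, and 0 against 8.22%), and the median was 0.31. Cck, which pyramidal cells and a class of interneurons express, had 662, 605 and 804 FPKM in PHL + CMS and 485, 473 and 558 FPKM in Veh + CMS (0.44 ± 0.13, adjusted p = 0.178). Vip, the peptide of disinhibitory interneurons, had 23.7, 25.2 and 26.1 FPKM in PHL + CMS and 18.4, 18.03 and 21.5 FPKM in Veh + CMS. Pnoc, the precursor of nociceptin, had 4.47, 4.86 and 6.32 FPKM in PHL + CMS and 3.55, 3.13 and 3.98 FPKM in Veh + CMS, and the nociceptin receptor Oprl1, named after its values were seen, had a log2 fold change of 0.41 ± 0.15. None of these 4 genes showed overlap between the groups. Penk, which striatal neurons express strongly, had 42.0, 47.3 and 33.3 FPKM in PHL + CMS and 138, 83.9 and 49.98 FPKM in Veh + CMS (log2 fold change -1.04 ± 0.51, unadjusted p = 0.0705) and was singled out after its values were seen. The broader interneuron markers had a median of 0.09, and that median was -0.02 without PHL + CMS replicate 1. At an unadjusted p under 0.05, 2 of 22 were higher (9.09%, against 7.51% of all genes).

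Genes of a list of glucocorticoid receptors and their targets were also higher in part. Of 24 tested, 18 lay above 0, and the median was 0.24, but 0.10 without Veh + CMS replicate 3. An unadjusted p under 0.05 was reached by 8 in the higher direction (33.3%, against 7.51% of all genes) and by none in the lower. Cdkn1a, the cell cycle inhibitor p21, had 15.01, 16.4 and 20.7 FPKM in PHL + CMS and 11.4, 10.3 and 8.72 FPKM in Veh + CMS (0.77 ± 0.19, adjusted p = 0.162). Nfkbia, which encodes the inhibitor that holds NF-kappaB in the cytoplasm, had 21.5, 23.1 and 27.3 FPKM in PHL + CMS and 12.2, 15.1 and 13.9 FPKM in Veh + CMS (0.80 ± 0.22, adjusted p = 0.172). Both genes separated the groups. Per1, a clock gene that also answers to glucocorticoids and to activity, had 29.6, 28.1 and 26.8 FPKM in PHL + CMS and 21.4, 12.2 and 12.1 FPKM in Veh + CMS, where replicate 1 was highest. The receptor gene itself, Nr3c1, had 16.7, 17.6 and 14.5 FPKM in PHL + CMS and 18.1, 20.5 and 17.8 FPKM in Veh + CMS (-0.21 ± 0.10, unadjusted p = 0.0766, looked up after the values were seen). Within the clock list, 5 of 21 genes were higher (23.8%, against 7.51% of all genes) and 2 lower (9.52%, near the 8.22% of all genes) at an unadjusted p under 0.05, with Per2 at 0.62 ± 0.17, Cry2 at 0.30 ± 0.08 and Bhlhe41 at -0.39 ± 0.12 on the log2 scale. The hour at which tissue was taken is not given in the sources used here.

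Genes of the excitatory synapse were higher by small amounts in PHL + CMS. Of 36 postsynaptic scaffold and adhesion genes 34 lay above 0 (median 0.19), 11 had an unadjusted p under 0.05, all in the higher direction (30.6%), and the groups did not overlap for 15 (41.7%, against 10.5% of all genes). Of 23 ionotropic glutamate receptor genes and their auxiliaries 18 lay above 0 (median 0.21, and 0.12 without Veh + CMS replicate 2), 6 were higher at an unadjusted p under 0.05 (26.1%, against 7.51% of all genes) and none lower. Grin1, the subunit that every NMDA receptor holds, had 97.3, 96.8 and 102 FPKM in PHL + CMS and 79.1, 84.2 and 80.0 FPKM in Veh + CMS (0.28 ± 0.07, adjusted p = 0.153). Cacng8, an auxiliary subunit of AMPA receptors, had 75.01, 71.3 and 74.9 FPKM in PHL + CMS and 55.6, 52.9 and 59.4 FPKM in Veh + CMS (0.40 ± 0.09, adjusted p = 0.149). In both of these genes the lowest PHL + CMS library stood above the highest Veh + CMS library. The adhesion molecules of the Lrfn family were higher at an unadjusted p under 0.05 except for Lrfn5 (unadjusted p = 0.052), with log2 fold changes of 0.67 ± 0.15 for Lrfn2, 0.41 ± 0.10 for Lrfn3, 0.38 ± 0.10 for Lrfn1 and 0.29 ± 0.09 for Lrfn4. Lrfn1, Lrfn4 and Lrfn5 were added after their values were seen.

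Among the 7 metabotropic receptors, the closely related Grm2 and Grm3 differed in direction. Grm2, found on neurons, had 17.7, 11.9 and 15.7 FPKM in PHL + CMS and 5.86, 8.499 and 10.8 FPKM in Veh + CMS (0.86 ± 0.27, adjusted p = 0.19). Grm3, which glia express too, had 26.1, 34.8 and 22.7 FPKM in PHL + CMS and 35.8, 44.3 and 40.8 FPKM in Veh + CMS (-0.55 ± 0.15, adjusted p = 0.167). On the presynaptic side, Syn1, a synapsin that tethers vesicles, had 239, 228 and 255 FPKM in PHL + CMS and 187, 169 and 182 FPKM in Veh + CMS (0.43 ± 0.08, adjusted p = 0.149). Stx1a, the syntaxin of vesicle fusion, had 160.0, 173 and 175 FPKM in PHL + CMS and 114, 129 and 131 FPKM in Veh + CMS. These 4 genes separated the groups. Of 27 fusion genes 10 were higher at an unadjusted p under 0.05 (37.0%, against 7.51% of all genes) and none lower. Of 17 synaptotagmins 6 were higher (35.3%, against 7.51%), with the smallest p for Syt13 at 0.38 ± 0.08.

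Channel genes were higher in part. Of 60 potassium channel genes 13 were higher (21.7%, against 7.51% of all genes) and 2 lower (3.33%, against 8.22%) at an unadjusted p under 0.05, with a median of 0.18. Kcnk12 had 11.8, 10.5 and 11.03 FPKM in PHL + CMS and 7.81, 8.04 and 8.03 FPKM in Veh + CMS, and Kcnk3, a background channel of the same family, had a log2 fold change of 0.39 ± 0.09. The pair of lower ones were Kcna1, with 18.3, 17.2 and 15.5 FPKM in PHL + CMS and 21.0, 22.2 and 22.5 FPKM in Veh + CMS, and Kcnj2. Of 27 voltage-gated sodium, calcium and pacemaker channel genes 5 were higher (18.5%, against 7.51% of all genes) and 1 was lower, Scn4b (3.70%, against 8.22%). Of 15 genes of the GABA-A receptor list 14 lay above 0, but only the inhibitory adhesion molecule Nlgn2 passed an unadjusted p of 0.05 (0.34 ± 0.09). That is 6.67% of the list, near the 7.51% of all genes. Of 22 monoamine receptor and enzyme genes none was higher and 2 were lower (9.09%, near the 8.22% of all genes). Among the lower ones was Drd2, which is also on the striatal list below.

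Markers of cell types differed as well. Some are also members of the lists above, such as the excitatory marker Cck of the neuropeptide list, so the lists are not independent. All 16 markers of excitatory neurons lay above 0 (median 0.29) with summed levels of 3626 to 4172 FPKM in PHL + CMS and 2917 to 3687 FPKM in Veh + CMS, and none of them was at 0. All 25 myelin genes lay below 0 (median -1.10) with sums of 3864 to 8434 FPKM in PHL + CMS and 9806 to 13195 FPKM in Veh + CMS. The part of such differences in cell content in the synaptic and activity values was not tested. Markers of upper cortical layers had a median of 0.01, with -0.19 once Veh + CMS replicate 3 was left out and 0.15 once replicate 2 was, and those of deep layers of 0.12, which was 0.04 without Veh + CMS replicate 2. Relative to the Veh mean, the myelin list stood at 0.32, 1.24 and 0.10 in PHL + CMS replicates 1, 2 and 3, as the plot of list levels shows. The excitatory neuron list stood at 0.04, -0.12 and 0.05 in the same libraries, and the immediate early list was level in all 3. How these lists depend on each other was not tested.

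**Figure D3:**
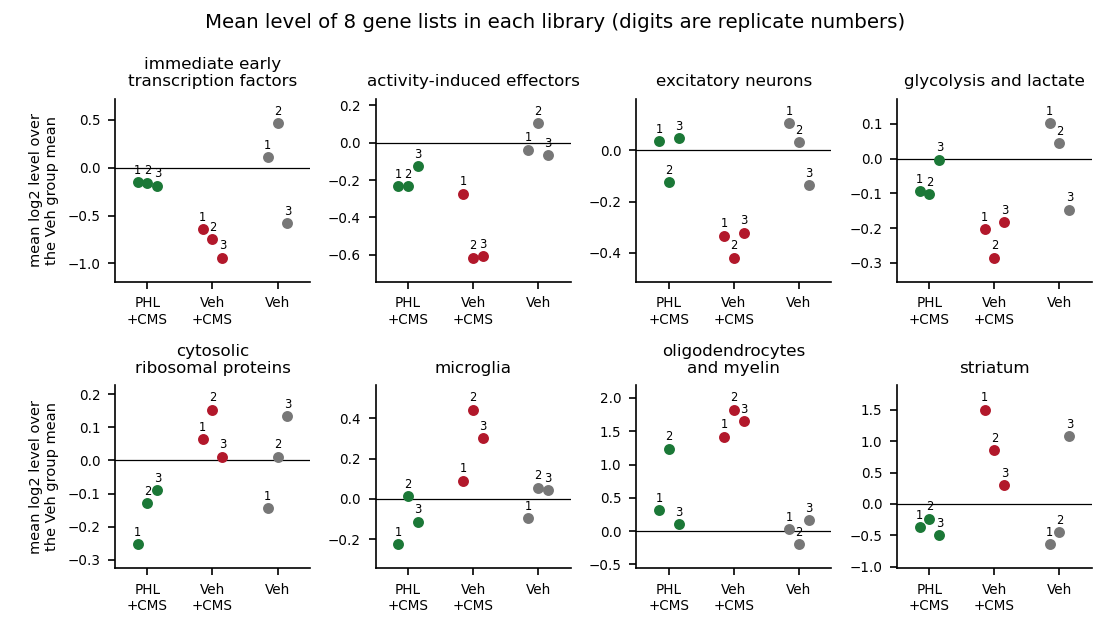
Mean log2 level of 8 gene lists in each library, relative to the mean of the Veh group (vertical axis, 0 line), with the replicate number beside each point, for PHL + CMS, Veh + CMS and Veh from left to right. The immediate early list lies between -0.19 and -0.15 in PHL + CMS and between -0.94 and -0.64 in Veh + CMS, and PHL + CMS replicate 2 stands apart for myelin genes, at 1.24.

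Receptors and ligands of axon growth went in both directions. Of 57 genes of the Nogo receptor complex and of axon guidance, 13 were higher (22.8%, against 7.51% of all genes) and 7 lower (12.3%, against 8.22%) at an unadjusted p under 0.05. Rtn4rl2, a Nogo receptor homologue on neurons, had 51.8, 44.6 and 56.1 FPKM in PHL + CMS and 30.3, 25.1 and 33.5 FPKM in Veh + CMS (0.78 ± 0.12, adjusted p = 0.149). Rtn4r, the Nogo receptor, had 63.0, 59.2 and 73.2 FPKM in PHL + CMS and 44.2, 47.3 and 47.2 FPKM in Veh + CMS, and Unc5a, a repulsive netrin receptor, had 36.5, 33.9 and 34.1 FPKM in PHL + CMS and 26.8, 24.6 and 29.2 FPKM in Veh + CMS. These 3 receptors lay above in every PHL + CMS library, while the guidance receptors Plxnb3 and Unc5b, singled out after their values were seen, were lower at -0.90 ± 0.27 and -0.75 ± 0.25. Among myelin ligands of Nogo receptors, Mag had 97.4, 189 and 81.1 FPKM in PHL + CMS and 202, 259.6 and 236 FPKM in Veh + CMS, and Omg had 85.9, 82.6 and 77.8 FPKM in PHL + CMS and 97.0, 106 and 99.8 FPKM in Veh + CMS. For both ligands the PHL + CMS libraries lay below. Mag is itself a myelin gene, and both were named after their values were seen. At the nodes of Ranvier and the axon initial segment, Sptbn4, the spectrin of both, had 31.2, 32.1 and 32.2 FPKM in PHL + CMS and 24.6, 25.8 and 26.5 FPKM in Veh + CMS (0.31 ± 0.07, adjusted p = 0.149), while Nfasc and Cntn2, which oligodendrocytes express as well, were lower at -0.45 ± 0.16 and -0.61 ± 0.20 with overlap between the groups.

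Enzymes of glycolysis were higher in PHL + CMS. Of 24 genes 19 lay above 0 (median 0.17), 9 were higher (37.5%, against 7.51% of all genes) and 1 lower at an unadjusted p under 0.05, and the groups did not overlap for 13 with PHL + CMS above (54.2%, against 10.5% of all genes). Hk1, the main hexokinase of brain, had 134, 120.0 and 123 FPKM in PHL + CMS and 99.9, 88.1 and 106 FPKM in Veh + CMS (0.36 ± 0.09, adjusted p = 0.16). Pfkl, a phosphofructokinase of the committing step, had 66.5, 62.3 and 59.1 FPKM in PHL + CMS and 49.7, 35.3 and 56.0 FPKM in Veh + CMS, and Aldoa had 1092, 1013 and 1072 FPKM in PHL + CMS and 864, 785 and 924 FPKM in Veh + CMS. The Veh libraries of Hk1 held 122, 116 and 108 FPKM. Pdk4, whose product inhibits pyruvate dehydrogenase and which is a glucocorticoid target too, had 4.85, 6.34 and 7.16 FPKM in PHL + CMS and 4.74, 2.33 and 1.95 FPKM in Veh + CMS. Hk2 was the 1 gene lower, at -0.51 ± 0.22. The excitatory neuron markers given above were higher in the same libraries, and their part in these values was not tested.

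Transporters that phloretin is known to inhibit as proteins showed little at the level of RNA. Of 14 tested, 8 lay above 0 (median 0.10, and -0.02 without Veh + CMS replicate 3). At an unadjusted p under 0.05, none was higher and 1 was lower (7.14%, near the 8.22% of all genes). A further 7, among them Slc2a2, Slc5a1 and Slc5a2, were under the level filter. The lower one was Slc16a1, the monocarboxylate transporter of endothelium and oligodendrocytes, at chr2:207108552-207128554 on the plus strand of Rnor_6.0. It had 20.7, 26.5 and 22.1 FPKM in PHL + CMS, against 29.3, 43.3 and 31.3 FPKM in Veh + CMS and 21.2, 19.4 and 20.8 FPKM in Veh (-0.57 ± 0.15, adjusted p = 0.167). The glucose transporter Slc2a1 of the blood-brain barrier had 67.4, 79.1 and 91.7 FPKM in PHL + CMS and 70.3, 87.5 and 62.9 FPKM in Veh + CMS, with overlap, and was looked up after the values were seen. Slc2a3, the neuronal glucose transporter, had 1.04, 17.8 and 0.449 FPKM in PHL + CMS and 0.851, 0.327 and 0.610 FPKM in Veh + CMS, so that its log2 fold change of 1.76 ± 1.09 rested on PHL + CMS replicate 2.

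Targets of the antioxidant factor NRF2 showed little as a list: 9 of 28 were above 0 (median -0.08, and -0.02 without Veh + CMS replicate 2), 5 were lower (17.9%, against 8.22% of all genes) and 1 higher at an unadjusted p under 0.05. The share whose groups did not overlap with PHL + CMS below was 10.7%, the same as over all genes. Prdx1, a peroxidase, had 99.5, 112 and 89.9 FPKM in PHL + CMS and 129.9, 134 and 128 FPKM in Veh + CMS (-0.39 ± 0.10, adjusted p = 0.162). Cat, the catalase gene, had 21.3, 22.2 and 19.5 FPKM in PHL + CMS and 29.0, 30.7 and 22.9 FPKM in Veh + CMS, and Gsta1, a glutathione transferase with near copies in the genome, had 22.8, 27.4 and 27.6 FPKM in PHL + CMS and 49.8, 49.6 and 34.9 FPKM in Veh + CMS. For all 3 the PHL + CMS libraries lay below the Veh + CMS libraries. Mt1, a metallothionein, was the higher one, with 4.98, 5.35 and 5.14 FPKM in PHL + CMS and 2.78, 3.55 and 2.94 FPKM in Veh + CMS. Of 27 heat shock chaperones 3 were higher (11.1%, against 7.51% of all genes) and 1 lower (3.70%, against 8.22%) at an unadjusted p under 0.05. Among the higher ones, Dnajb5 had 60.9, 60.0 and 67.9 FPKM in PHL + CMS and 43.1, 44.3 and 38.6 FPKM in Veh + CMS (0.58 ± 0.09, adjusted p = 0.149). The lower one was Cryab, a small heat shock protein that oligodendrocytes hold in quantity, with 23.9, 55.9 and 33.7 FPKM in PHL + CMS and 96.2, 61.9 and 61.3 FPKM in Veh + CMS.

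Microglial genes lay lower in PHL + CMS, and the phagocytic machinery with them. Of 33 phagocytosis receptor and oxidase genes 6 lay above 0 (median -0.27, and -0.15 without Veh + CMS replicate 2), 9 were lower (27.3%, against 8.22% of all genes) and 1 higher at an unadjusted p under 0.05. Fcgr3a, an activating Fc receptor, had 0.636, 1.18 and 0.943 FPKM in PHL + CMS and 1.84, 2.27 and 2.70 FPKM in Veh + CMS (-1.24 ± 0.30, adjusted p = 0.157). Trem2, a lipid-sensing receptor of microglia, had 6.74, 7.74 and 6.85 FPKM in PHL + CMS and 9.71, 13.03 and 10.9 FPKM in Veh + CMS (-0.64 ± 0.14, adjusted p = 0.149). Cyba, a subunit of the phagocyte NADPH oxidase, had 6.75, 8.22 and 7.37 FPKM in PHL + CMS and 10.4, 11.7 and 11.7 FPKM in Veh + CMS. These 3 genes separated the groups, and the Veh libraries of Trem2 held 8.996, 9.71 and 12.05 FPKM. Megf10, an engulfment receptor that astrocytes use, had 2.87, 4.06 and 3.17 FPKM in PHL + CMS and 4.56, 7.47 and 5.14 FPKM in Veh + CMS and was named after its values were seen. Sirpa, the receptor of the "do not eat me" ligand CD47, was the 1 higher gene, with 86.3, 82.0 and 81.7 FPKM in PHL + CMS and 68.2, 73.9 and 75.5 FPKM in Veh + CMS. The 27 microglial markers summed to 448 to 516 FPKM in PHL + CMS and 550.0 to 698 FPKM in Veh + CMS. At an unadjusted p under 0.05, 16 of them were lower (59.3%, against 8.22% of all genes) and none higher, and 1 listed marker, Siglech, was listed at 0 in all 6 libraries. Trem2, given above, is itself among these markers, so the microglial and phagocytic values are not independent. The part of this shift in the phagocytic values was not tested.

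Complement component C3, at chr9:9721105-9747167 on the plus strand of Rnor_6.0, had 1.04, 1.56 and 0.847 FPKM in PHL + CMS, against 2.52, 4.90 and 6.22 FPKM in Veh + CMS and 2.04, 1.02 and 1.72 FPKM in Veh. The log2 fold change was -1.84 ± 0.38 (adjusted p = 0.149), and the two-sided exact permutation test of 3 libraries against 3 gave p = 0.1, the smallest it can give. The initiator chains of the classical pathway differed less, with log2 fold changes of -0.52 ± 0.11 for C1qa, -0.40 ± 0.11 for C1qb and -0.26 ± 0.09 for C1qc, and of the 23 complement genes tested (median -0.18) these 3 and C3 were lower at an unadjusted p under 0.05 (17.4%, against 8.22% of all genes) and none was higher (against 7.51%). C1qa, C1qb and C1qc are also among the microglial markers counted above. Cx3cr1, the fractalkine receptor of microglia, had 12.8, 11.5 and 10.5 FPKM in PHL + CMS and 14.1, 22.0 and 19.0 FPKM in Veh + CMS. Gpr84, a receptor of medium-chain fatty acids on activated microglia, had 1.94, 2.54 and 1.78 FPKM in PHL + CMS, against 3.70, 4.86 and 4.77 FPKM in Veh + CMS and 2.004, 2.54 and 2.03 FPKM in Veh (-1.06 ± 0.19, adjusted p = 0.149). Cd4, the 1 gene lower in a list of T cell, B cell and macrophage markers, had 3.29, 3.28 and 3.05 FPKM in PHL + CMS and 4.81, 8.22 and 7.86 FPKM in Veh + CMS. It is known from T cells and, in the rat, from macrophages and microglia too. The T cell genes Cd3e, Cd3d, Cd3g, Cd8a and Cd8b were all under the level filter.

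Lysosomal genes were lower in part. Of 52 tested 14 were lower (26.9%, against 8.22% of all genes) and 2 higher at an unadjusted p under 0.05, with a median of -0.10. Npc2, which hands cholesterol to the lysosomal membrane, had 51.2, 67.1 and 53.3 FPKM in PHL + CMS and 78.1, 108 and 82.6 FPKM in Veh + CMS (-0.64 ± 0.14, adjusted p = 0.149). Lamp2, a membrane protein of lysosomes, had 50.7, 55.7 and 45.5 FPKM in PHL + CMS and 69.9, 83.6 and 71.9 FPKM in Veh + CMS (-0.57 ± 0.12, adjusted p = 0.149). Galc, which breaks down the myelin lipid galactosylceramide, had 2.76, 3.37 and 3.02 FPKM in PHL + CMS and 4.07, 6.18 and 5.36 FPKM in Veh + CMS. All 3 separated the groups. Lipid genes of the cholesterol list showed no common direction, with 1 higher (Srebf2) and 2 lower (Ebp and Abca1) of 27. These shares were 3.70% and 7.41%, under the 7.51% and 8.22% of all genes.

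Components of NF-kappaB signalling showed little. Of 36 tested 15 lay above 0 (median -0.07, and 0.01 without PHL + CMS replicate 1), 1 was higher (2.78%, against 7.51% of all genes) and 3 lower (8.33%, against 8.22%) at an unadjusted p under 0.05, shares near or under those of all genes. The higher one was the inhibitor Nfkbia, given above, and the lower ones were Ltbr, the lymphotoxin receptor, with 8.51, 8.91 and 8.19 FPKM in PHL + CMS and 9.99, 11.96 and 10.9 FPKM in Veh + CMS, Litaf at -0.84 ± 0.24 and Traf4 at -0.66 ± 0.20. The subunit gene Rela, looked up after the values were seen, had 10.5, 12.5 and 9.35 FPKM in PHL + CMS and 11.5, 12.7 and 13.3 FPKM in Veh + CMS, with overlap (unadjusted p = 0.088). Il1a, Il1b and Tnf were under the level filter. None of 16 genes of antigen presentation and none of 27 interferon-induced genes passed an unadjusted p of 0.05 in either direction. In PHL + CMS replicate 1 several interferon-induced genes stood above every other library, such as Irf7 with 14.7, 2.33 and 2.26 FPKM in PHL + CMS and 1.52, 2.24 and 2.597 FPKM in Veh + CMS, and Ifit3 with 7.60, 1.51 and 1.79 FPKM in PHL + CMS and 0.499, 1.89 and 1.39 FPKM in Veh + CMS, so that the median of that list was -0.30 without this library and 0.01 with it.

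**Figure D4:**
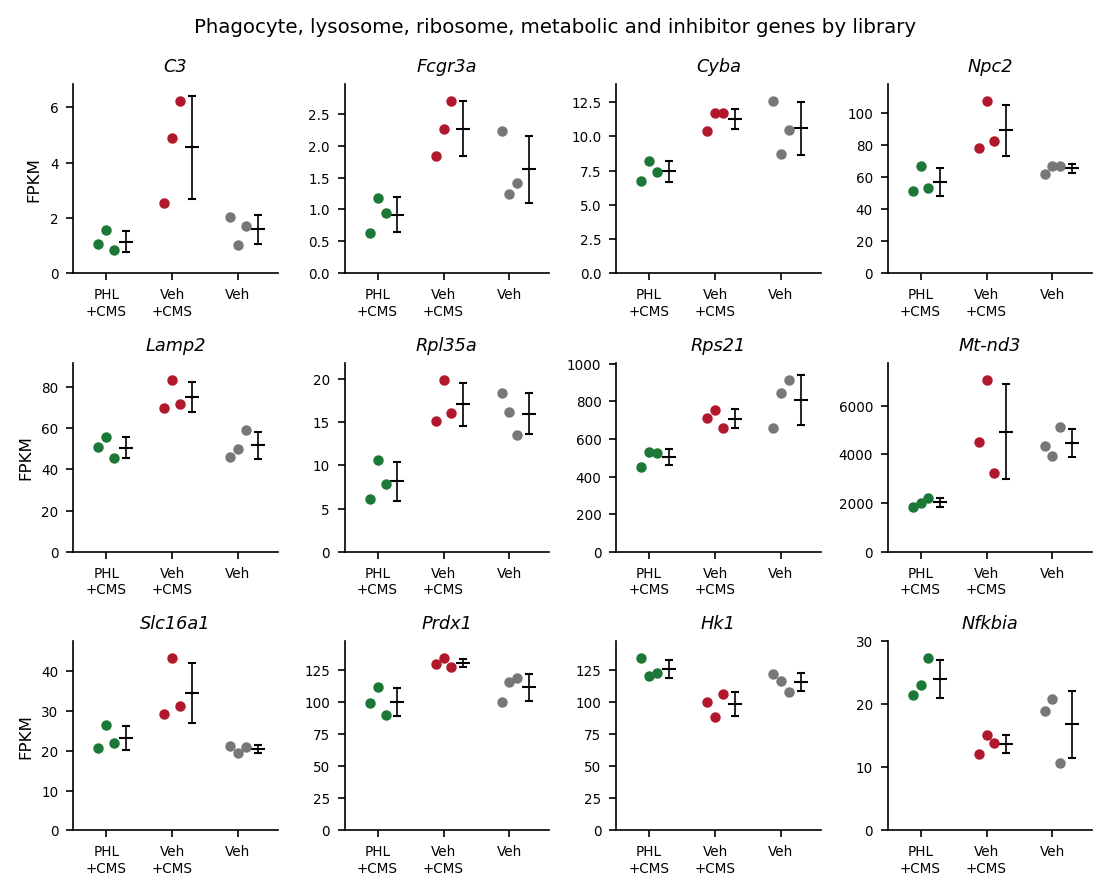
FPKM of 12 genes of phagocytes, lysosomes, ribosomes, mitochondria and metabolism in each library (points), with the group mean and SD (black, n = 3 per group), for PHL + CMS, Veh + CMS and Veh from left to right. The 3 PHL + CMS libraries lie below the 3 Veh + CMS libraries for the first 10 genes and above them for Hk1 and Nfkbia.

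Genes of cytosolic ribosomal proteins were lower across the list by a small amount. Of 87 tested 81 lay below 0 and 6 above, the median was -0.22 (-0.25 to -0.17 when any library was left out), 35 were lower at an unadjusted p under 0.05 (40.2%, against 8.22% of all genes) and none higher, and the groups did not overlap for 46 with PHL + CMS below (52.9%, against 10.7%). Rps21 had 452, 530.2 and 527 FPKM in PHL + CMS and 710.1, 756 and 657 FPKM in Veh + CMS (-0.49 ± 0.13, adjusted p = 0.167). Rps28 had 96.4, 125 and 104 FPKM in PHL + CMS and 141, 176 and 163 FPKM in Veh + CMS. Both encode proteins of the small subunit, and their groups did not overlap. Rpl35a, of the large subunit, had 6.15, 10.6 and 7.80 FPKM in PHL + CMS and 15.2, 19.9 and 16.1 FPKM in Veh + CMS (-1.08 ± 0.20, adjusted p = 0.149). Ribosomal protein genes have many processed copies in the genome, and how reads shared between copies were counted is not given in the sources used here, so single members are uncertain. Rps21 was singled out after its values were seen. Mitochondrial ribosomal proteins showed no such shift, with a median of 0.02 over 77 genes (-0.01 without PHL + CMS replicate 3) and 2 at an unadjusted p under 0.05 in each direction, and the proteasome genes had a median of 0.03 (-0.01 without Veh + CMS replicate 2).

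Transcripts of the mitochondrial genome lay lower in PHL + CMS, with 25 of 32 tested genes below 0 and 6 above and a median of -0.40. At an unadjusted p under 0.05, 9 were lower (28.1%, against 8.22% of all genes). Mt-nd3, a subunit of complex I, had 1842, 2018 and 2219 FPKM in PHL + CMS and 4503, 7062 and 3235 FPKM in Veh + CMS (-1.21 ± 0.25, adjusted p = 0.149). Mt-co2, of complex IV, had 7451, 9368 and 9386 FPKM in PHL + CMS and 12251, 15772 and 10425 FPKM in Veh + CMS. Veh + CMS replicate 2 was the highest library for both genes, and the median of the list was -0.13 without that library and -0.56 without Veh + CMS replicate 1. The mitochondrial share of all reads was 6.96% to 9.09% in PHL + CMS and 9.67% to 13.9% in Veh + CMS, and its part in the other values was not tested. Nuclear genes of the respiratory chain stood close to 0, with a median of -0.04 over 82 genes (0.01 without Veh + CMS replicate 2). At an unadjusted p under 0.05, 2 were higher (2.44%, against 7.51% of all genes) and 5 lower (6.10%, against 8.22%).

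The 25 myelin genes summed to 3864 to 8434 FPKM in PHL + CMS, 9806 to 13195 FPKM in Veh + CMS and 2878 to 3598 FPKM in Veh. The highest PHL + CMS sum was that of replicate 2, and it lay below every Veh + CMS sum. Oligodendrocyte precursor markers had a median of -0.53, which was -0.33 without PHL + CMS replicate 3, and 6 of 11 were lower at an unadjusted p under 0.05 (54.5%, against 8.22% of all genes). Astrocyte markers had a median of -0.12, with -0.01 once Veh + CMS replicate 2 was left out and -0.24 once replicate 1 was. At an unadjusted p under 0.05, 3 of 20 were lower (15%, against 8.22% of all genes). Among them was Gfap, with 119, 145 and 129 FPKM in PHL + CMS and 146, 229 and 216 FPKM in Veh + CMS. Endothelial markers had a median of -0.21, which was -0.04 without Veh + CMS replicate 2, with 1 of 18 lower, Tjp1 (5.56%, against 8.22% of all genes). The defining marker Cldn5 was listed at 0 in all 6 libraries. Haemoglobin and other blood genes had a median of -0.01, with -0.42 once Veh + CMS replicate 1 was left out and 0.39 once replicate 2 was. Meningeal genes were uneven within PHL + CMS: Col1a1 had 8.26, 2.61 and 7.28 FPKM in PHL + CMS and 2.03, 4.59 and 2.505 FPKM in Veh + CMS and was chosen after its values were seen. The list of 20 had a median of 0.55, which was 0.28 without PHL + CMS replicate 1 and 1.02 without PHL + CMS replicate 2. At an unadjusted p under 0.05, 2 genes (Aldh1a2 and Islr) were higher (10%, near the 7.51% of all genes), but no member separated the groups.

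Genes of striatal projection neurons, which lie next to the mPFC, were among the largest changes. Adora2a, the adenosine receptor of the indirect pathway, had 2.31, 3.10 and 3.08 FPKM in PHL + CMS, against 33.4, 20.7 and 10.04 FPKM in Veh + CMS and 2.76, 2.73 and 22.1 FPKM in Veh (-2.72 ± 0.75, adjusted p = 0.167). All PHL + CMS libraries were low, all Veh + CMS libraries were high with replicate 1 highest, and in the Veh group replicate 3 alone was high. Drd2, the dopamine receptor of the same cells, had 1.80, 2.80 and 1.84 FPKM in PHL + CMS, against 14.02, 8.56 and 4.87 FPKM in Veh + CMS and 1.27, 1.74 and 9.94 FPKM in Veh. Of 21 striatal genes 20 lay below 0 (median -0.99). At an unadjusted p under 0.05, 12 were lower (57.1%, against 8.22% of all genes) and none higher. The 21 genes summed to 363 to 384 FPKM in PHL + CMS, 521 to 1137 FPKM in Veh + CMS and 346 to 845 FPKM in Veh. Gpr6, Syndig1l, Lrrc10b, Rgs9 and Gng7, all among the 15 genes with the largest lower change, were low in every PHL + CMS library and high in every Veh + CMS library and in Veh replicate 3. How much striatal tissue each piece held cannot be told apart from the treatment here.

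The single genes with the smallest p in the higher direction had varied roles. Cbarp, a regulator of voltage-gated calcium channels, had 152, 148 and 145 FPKM in PHL + CMS and 114, 108 and 103 FPKM in Veh + CMS (0.45 ± 0.07, adjusted p = 0.149). Elfn2, a postsynaptic adhesion protein, had 36.4, 36.8 and 36.4 FPKM in PHL + CMS, against 29.9, 29.2 and 27.5 FPKM in Veh + CMS and 28.7, 28.5 and 28.6 FPKM in Veh. In Elfn2 the Veh + CMS and Veh libraries lay together and the PHL + CMS libraries lay above both. Ahdc1, a DNA-binding protein, showed the same order, with 16.7, 15.2 and 15.2 FPKM in PHL + CMS, 11.8, 10.5 and 10.1 FPKM in Veh + CMS and 11.01, 10.7 and 12.2 FPKM in Veh. Clpp, a protease of the mitochondrial matrix, had 43.0, 50.9 and 38.5 FPKM in PHL + CMS and 28.5, 24.99 and 31.4 FPKM in Veh + CMS. Ptprn, a protein of dense-core vesicles, had a log2 fold change of 0.39 ± 0.07, Dtx1, a regulator of Notch signalling, of 0.50 ± 0.08 and Plppr2 of 0.40 ± 0.06.

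In the lower direction, Pigp, a subunit of the enzyme that begins the GPI anchor, had the smallest p of all lower genes, with 21.3, 22.8 and 22.9 FPKM in PHL + CMS, against 32.1, 34.6 and 30.5 FPKM in Veh + CMS and 30.9, 30.6 and 31.4 FPKM in Veh (-0.53 ± 0.07, adjusted p = 0.149). Here the Veh libraries stood with the Veh + CMS libraries. Cmc1, an assembly factor of cytochrome oxidase, had 4.63, 2.71 and 5.12 FPKM in PHL + CMS and 13.7, 9.51 and 14.7 FPKM in Veh + CMS (-1.61 ± 0.25, adjusted p = 0.149). Yif1b, a protein of vesicle traffic, had 2.18, 0.650 and 0.419 FPKM in PHL + CMS and 12.8, 10.4 and 8.94 FPKM in Veh + CMS (-3.47 ± 0.55, adjusted p = 0.149). Neither gene showed overlap between the groups. Efna1, an ephrin, had 3.002, 4.15 and 2.82 FPKM in PHL + CMS and 6.14, 7.11 and 6.36 FPKM in Veh + CMS, and Slc12a2, the chloride importer NKCC1, had 17.4, 25.7 and 16.3 FPKM in PHL + CMS and 34.5, 40.0 and 32.2 FPKM in Veh + CMS. Slc12a2 is known from oligodendrocytes as well as other cells, and PHL + CMS replicate 2 was its highest library in that group, as for the myelin genes. Gatm, an enzyme of creatine synthesis, and Sec11c, a catalytic subunit of the signal peptidase, had log2 fold changes of -0.62 ± 0.10 and -0.59 ± 0.09.

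Some of the largest fold changes rested on 1 or 2 libraries or on few reads. LOC100910418, annotated as a plasminogen activator-like gene, had 12.5, 0.408 and 10.3 FPKM in PHL + CMS and 0.0648, 0.149 and 0.130 FPKM in Veh + CMS. Gstm5, a glutathione transferase, had 2.44, 37.7 and 1.53 FPKM in PHL + CMS and 0.941, 0.650 and 0.441 FPKM in Veh + CMS. In both genes 1 PHL + CMS library stood far from the other 2. Nfs1, a cysteine desulfurase with 2 entries in the table, had in the entry with more reads 13.5, 2.56 and 7.58 FPKM in PHL + CMS, against 0.174, 0.601 and 0.437 FPKM in Veh + CMS and 5.15, 15.2 and 0.561 FPKM in Veh, so that the Veh libraries spread over nearly the same span as the other 6 libraries together. Aplnr, the apelin receptor, had 0.656, 0.433 and 0.183 FPKM in PHL + CMS and 1.07, 1.31 and 1.14 FPKM in Veh + CMS and was named after its values were seen, and of the 30 genes of its pathway 7 were higher (23.3%, against 7.51% of all genes) and 3 lower (against 8.22%) at an unadjusted p under 0.05.

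**Figure D5:**
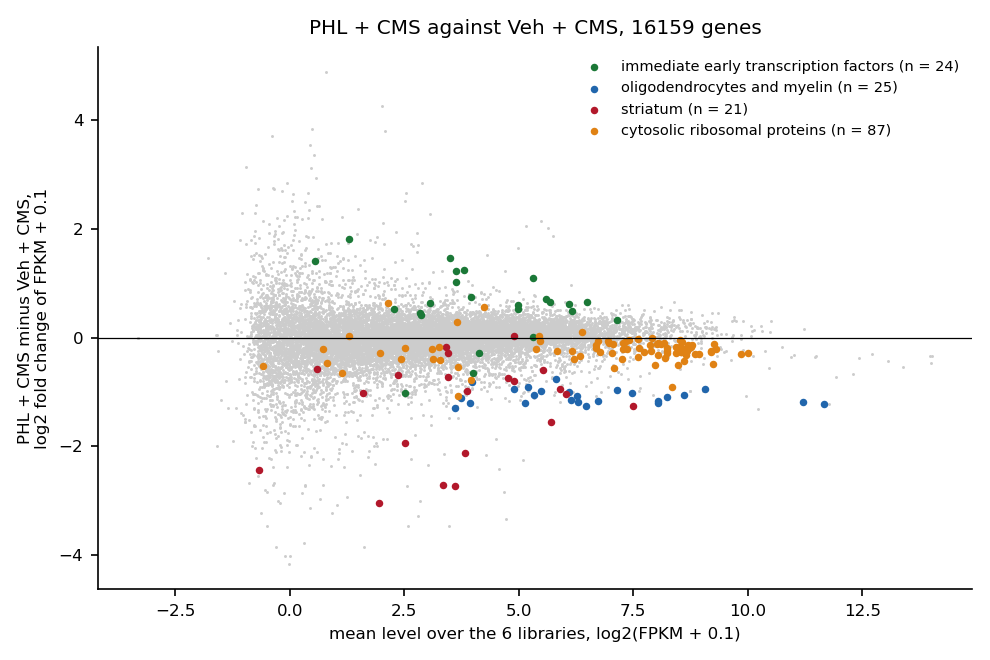
Log2 fold change between PHL + CMS and Veh + CMS (vertical axis) against the mean level over the 6 libraries (horizontal axis, log2 of FPKM + 0.1) for the 16159 genes tested (grey), with 4 lists in colour. Immediate early factors (green) lie mostly above 0, and ribosomal (orange), myelin (blue) and striatal (red) genes mostly or wholly below it.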

How the data were processed

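Bulk RNA of rat mPFC tissue was sequenced in 9 libraries, 3 in each of the PHL + CMS, Veh + CMS and Veh groups. The authors deposited FPKM values, fragments scaled to the length of the gene and the size of the library, of each gene in each library. The submitters' processing notes name HISAT2 and Rnor_6.0, while the HISAT2 version, the annotation, the read filters, the strand setting and the handling of reads shared by copies were not given in the sources used here. Whole reads could be recovered from the deposited values, within a tolerance of 1e-06, for 100% of them, and gave the depth of each library (13913639 to 16960004 reads on genes over the 9). Counting error is therefore small for all but the lowest genes.

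Genes with a mean of at least 0.5 FPKM over the 9 libraries were kept, which left out 18304 genes, and the model was fitted on log2(FPKM + 0.1) by limma (version 3.58.1, under R 4.3.3), with a trend in the moderation and all 9 libraries in the fit. The contrast was PHL + CMS minus Veh + CMS, two-sided, with Benjamini-Hochberg adjustment over all 16159 genes. Standard deviations and errors have n = 3 per group. Exact permutation tests of 3 libraries against 3 cannot go below p = 0.1. A gene separated the groups when no library of one group lay within the range of the other. The fit was tested on simulated data with known changes.

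The members of all lists, and the lists themselves, were chosen with earlier results of these data known. Genes were named by rule when the study had measured them by PCR, or when they were among the 4 smallest p of a list. Also named by rule were the 15 smallest p in a direction with groups that did not overlap. So were the 15 largest changes in a direction that also had an unadjusted p under 0.05 and a mean of at least 1 FPKM. All other genes with values were chosen after those values were seen, and most are marked so where they appear. Btg2, Spry2, Scg2, Mir132, Hk2, Sirpa, Kcnj2, Nfasc and Mt-co2 are not marked there but were chosen in the same way. Alternatives changed the pseudocount, the filter, the scaling, the model, the fold and each library in turn, and included the recovered reads with voom. Fold changes and p-values of the authors were not used. Sequences came from RefSeq tables of GRCr8 and coordinates of genes from the deposited table.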

Additional observations from a re-analysis of the deposited data

How the results depend on the processing

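No gene passed an adjusted p of 0.05 (limma, with 2542 at an unadjusted p under 0.05), nor with voom on the recovered reads. The count was 6 with no filter on low values, 1 with moderation without a trend, and 0 to 285 when a library was left out (285 without PHL + CMS replicate 2, 1 each without Veh + CMS replicate 2 and replicate 3). The genes at least 1.5-fold higher at an unadjusted p under 0.05, 205, became 136 with a pseudocount of 1, 338 with no filter, 85 at 2-fold, and 153 to 287 without a library. The lower ones, 561, became 202 at 2-fold and 407 to 768 without a library. The genes higher at an unadjusted p under 0.05, 1213, became 764 to 1269 without a library (764 without PHL + CMS replicate 3), and the lower ones, 1329, became 899 to 1487. With a replicate block the counts were 0 genes at an adjusted p under 0.05, 207 and 536 at 1.5-fold, and 1106 and 1201 at an unadjusted p under 0.05. The deviations of libraries with the same number correlated at 0.05, 0.02 and -0.04, and those of libraries with different numbers at -0.08 to 0.06. This check showed no pairing by number, but it could not exclude it, since each deviation is from a mean of 3 libraries. With quantile normalization the 1.5-fold counts were 264 higher and 502 lower.

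Over 253 named genes and all alternatives, 5546 values were compared, of which 5488 kept their direction and side of the threshold, 46 came past the threshold (44 of them without PHL + CMS replicate 2) and 12 changed sign, in 4 genes of blood and macrophages. Hbb-bs had 0.027 with library weights and -0.73 to 0.43 when a library was left out. Ahsp had -0.15 to 0.41 when a library was left out. Mrc1 had 0.025 with library weights and -0.58 to 0.52 when a library was left out. Lyve1 had 0.0024 with a pseudocount of 1, 0.0888 with quantile normalization and -0.099 to 0.17 when a library was left out. Of the medians of 57 lists, 16 took the other sign in at least 1 alternative, with medians between -0.14 and 0.13. The causes were not tested. With 3 libraries a group and a median standard error of 0.16, small changes of single genes could not be told from spread.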
